A study of Mus musculus with 18 samples.

Results

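The Aurora kinases and the chromosomal passenger complex were examined in murine lung cancer cells by RNA-Seq. The 8 genes, chosen by symbol, were *Aurka*, *Aurkb*, *Incenp*, *Birc5*, *Cdca8*, *Sgo1*, *Bora* and *Cdca2*, of 55450 genes in the count table. All 8 passed the filter on low counts, as did 14761 genes of the whole table. The cells were ED1SQ4, an established murine lung cancer cell line from a tumor of a transgenic mouse that overexpresses cyclin E. They were treated for 72 hours with vehicle or with 0.5 μM CYC065 (fadraciclib), a CDK2/9 inhibitor. Cells of each treatment were sequenced unsorted, or sorted by a live-cell DNA dye into diploid (2N) and polyploid (4N) populations, which gave 6 conditions. A gate on DNA content places diploid cells in G2 or mitosis together with polyploid cells, and the 2 kinds of cell cannot be told apart in the 4N libraries.

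Aurora B kinase works inside the chromosomal passenger complex, with INCENP as its scaffold and activator and with survivin (*Birc5*) and borealin (*Cdca8*) as the module that places it on chromosomes. The complex corrects faulty kinetochore attachments at centromeres and then moves to the central spindle, where it governs cytokinesis. Aurora A acts at centrosomes and spindle poles. Genes of both kinase systems are usually transcribed most in G2 and mitosis.

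The labels name the 3 columns of a condition as parts of 1 numbered library. Over genes with whole counts, the 8 genes among them, the parts differed no more than sampling noise, with chi-square values per degree of freedom of 0.992 to 1.02, and of 0.497 to 1.21 over the 8 genes alone. Over all genes the values were 1.62 to 2.24, and over genes with fractional counts 4.94 to 8.85. Each condition was therefore counted as 1 library of 54750203 to 62795507 counts. Intervals and adjusted P values cover counting error, compare libraries and carry no information on the spread between cultures. Levels are CPM, counts scaled to a common library size after TMM normalization. A gene was called changed at an adjusted P below 0.05 (edgeR quasi-likelihood test, Benjamini-Hochberg) and a log2 fold change beyond 1, and a looser call used 0.5. Of 11 lung epithelial markers, the summed level was 0.583 to 1.75 CPM, with *Nkx2-1* at 0 counts in every library. Of 10 markers of other cell types, the summed level was 2911 to 7282 CPM, with *Ptprc* at 1 count or fewer and the fibroblast collagen gene *Col1a1* at 2648 to 5911 CPM. Fewer cells expressing a gene and less of its RNA per cell cannot be told apart in these bulk libraries. Levels are shares of a library and not amounts per cell, so a difference in total RNA between conditions is not seen.

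All 8 genes were highest in vehicle-treated 4N cells, and all 8 were lowest in CYC065-treated cells that were unsorted or 2N. Within the CYC065 treatment, each gene was higher in 4N than in 2N cells, from 1.90-fold for *Bora* to 2.38-fold for *Aurka*. The 4N cells under CYC065 had a median of 98.0% of the level of vehicle-treated 2N cells over the 8 genes. By the intervals of these ratios, 4 genes were below vehicle-treated 2N cells and 2 were above. *Birc5* was lowest at 63.2%, followed by *Bora* at 78.6% and *Incenp* at 85.6%, and *Cdca8* was highest at 119%.

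**Figure D1:**
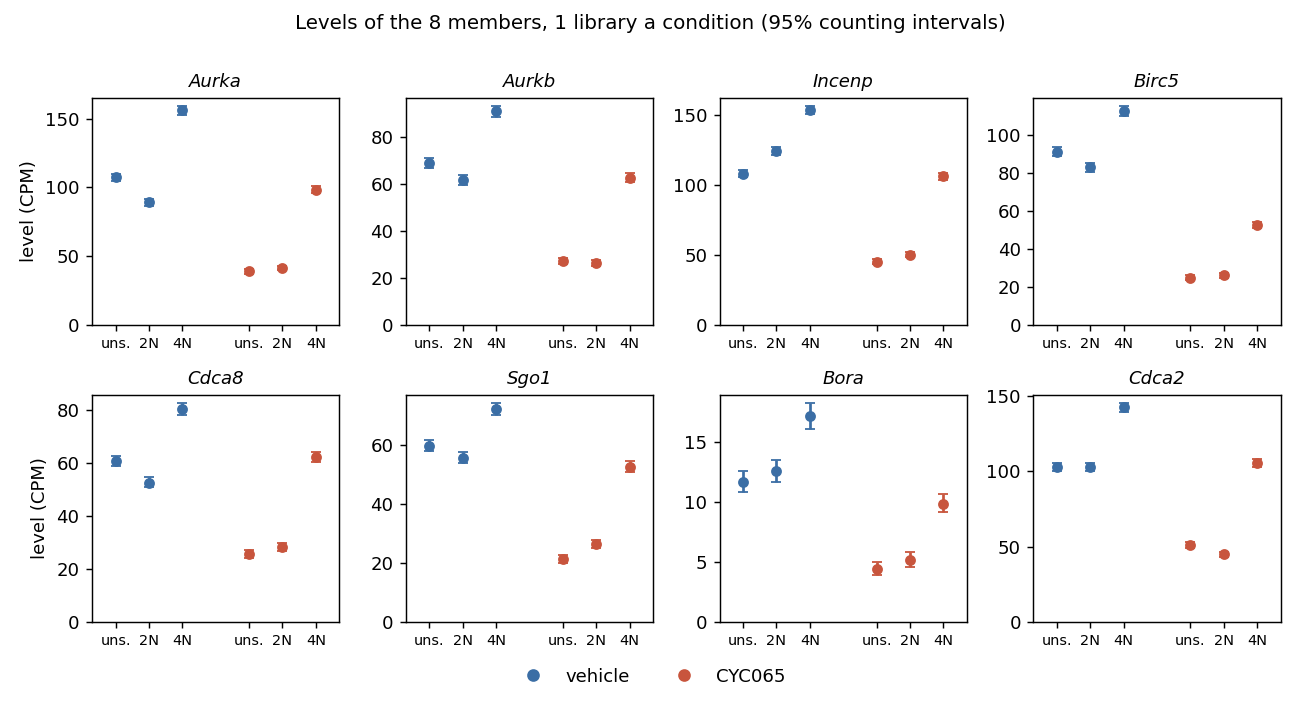
Level of each of the 8 genes in CPM (y axes, starting at 0) in unsorted (uns.), 2N and 4N cells, with vehicle in blue and CYC065 in red. Points are the libraries and bars the 95% counting intervals; each gene is highest in vehicle-treated 4N cells, and the CYC065-treated 4N cells lie at 78.6% (*Bora*) to 119% (*Cdca8*) of the vehicle-treated 2N cells except for *Birc5*, at 63.2%.

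*Aurka* (chr2:172356190-172370535, minus strand, mm10) encodes Aurora A, the kinase of centrosome maturation and spindle assembly. It had 107 CPM in unsorted, 89.0 CPM in 2N and 156 CPM in 4N cells with vehicle. With CYC065 it had 38.7, 41.2 and 98.3 CPM. All 5 neighbouring pairs in the order of its levels were separated by the 95% intervals of their ratios. CYC065-treated 4N cells were at 111% of vehicle-treated 2N cells (95% interval 107% to 115%). The closest pair was CYC065-treated 2N and unsorted cells, at a ratio of 1.07 (95% interval 1.004 to 1.13). Their level intervals overlapped, and the fit gave this pair an adjusted P of 0.0552 (edgeR quasi-likelihood test).

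*Bora* (chr14:99046222-99074540, plus strand) encodes the cofactor through which Aurora A activates PLK1. Its level was 11.7, 12.5 and 17.1 CPM in unsorted, 2N and 4N cells with vehicle. It was 4.40, 5.18 and 9.85 CPM with CYC065. Parts of its libraries held 64 to 364 counts, the fewest of the 8 genes, and its intervals were the widest.

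*Aurkb* (chr11:69045647-69051664, plus strand) encodes Aurora B, the kinase of the passenger complex. It had 69.1, 61.7 and 91.1 CPM in unsorted, 2N and 4N cells with vehicle, and 27.1, 26.4 and 62.6 CPM with CYC065. The CYC065-treated 4N cells were not separated from vehicle-treated 2N cells (101.5%, 95% interval 97.0% to 106%), nor the CYC065-treated unsorted cells from the CYC065-treated 2N cells.

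*Incenp* (chr19:9872296-9899551, minus strand) encodes the scaffold to which the other subunits bind. It had 108 CPM in unsorted, 124 CPM in 2N and 154 CPM in 4N cells with vehicle. With CYC065 it had 44.9, 50.04 and 106 CPM. In each treatment it was lower in unsorted cells than in both sorted populations, beyond the intervals.

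*Birc5* (chr11:117849251-117855743, plus strand) encodes survivin, which binds phosphorylated histone H3 at centromeres. It had 91.4, 83.2 and 113 CPM in unsorted, 2N and 4N cells with vehicle. With CYC065 it had 24.8, 26.0 and 52.5 CPM. All 3 CYC065 libraries were below all 3 vehicle libraries, and the range of 4.53-fold from lowest to highest was the widest of the 8 genes.

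*Cdca8* (chr4:124918465-124939311, minus strand) encodes borealin. It had 60.9, 52.7 and 80.7 CPM in unsorted, 2N and 4N cells with vehicle, and 25.6, 28.3 and 62.5 CPM with CYC065. Its CYC065-treated 4N cells were at 119% of the vehicle-treated 2N cells (95% interval 113% to 124%), the highest such share of the 8 genes. *9930104L06Rik*, on the opposite strand, overlaps 232 of its exonic bases and held 283 to 426 counts per library, against 1366 to 4897 for *Cdca8*; the kit was stranded, but the strand setting of the counting is not given in the sources used here.

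*Sgo1* (chr17:53674786-53689333, minus strand) encodes shugoshin, which protects centromeric cohesion and helps to place the complex. It had 59.9, 55.8 and 72.3 CPM in unsorted, 2N and 4N cells with vehicle, and 21.4, 26.4 and 52.8 CPM with CYC065. *Cdca2* (chr14:67676331-67715841, minus strand) encodes Repo-Man, the chromatin subunit of protein phosphatase 1 that removes mitotic marks from histone H3. It had 103, 103 and 143 CPM with vehicle, and 51.3, 44.8 and 105 CPM with CYC065. *Cdca2* was the only gene of the 8 for which CYC065-treated unsorted cells were higher than CYC065-treated 2N cells beyond the interval (114%, 95% interval 108% to 121%).

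Over the 8 genes, 9 of 40 neighbouring pairs of conditions were not separated by their 95% intervals. Levels were also divided by the merged exon length of all annotated transcripts of a gene, 2531 bases for *Aurka* and 3402 for *Birc5*. The lengths of the transcripts expressed were not measured, so ranks by this value depend on the annotation. By it, *Aurka* was highest in every library (15.3 to 61.6 CPM per kb) and *Bora* lowest (0.854 to 3.32 CPM per kb). *Incenp* lay second in all but the vehicle-treated unsorted library, where *Birc5* did (26.9 CPM per kb, against 24.9 for *Incenp*). *Birc5* ranked above *Aurkb* in the 3 vehicle libraries and below *Aurkb* and *Cdca2* in the 3 CYC065 libraries. The share of 50-base stretches that these genes had in common with other genes was 3.12% in *Bora*, 2.00% in *Birc5*, 0.834% in *Cdca8*, 0.315% in *Sgo1* and 0 in the other 4.

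The promoters are shown for *Aurka* and *Birc5*, since the first held CCAAT before its RefSeq start and the second, the gene that fell most with CYC065, did not. *Sgo1*, also without CCAAT, fell less than *Aurka* in 2N and 4N cells and slightly more in unsorted cells. A link between these letters and the falls was not tested. RefSeq promoters (GRCm38.p6) were matched for 4 of the 8 genes, *Aurka*, *Birc5*, *Cdca8* and *Sgo1*. The last 100 bases before the RefSeq start are printed 5′ to 3′ on the gene's strand, from chr2:172370571-172370670 (minus strand) and chr11:117849137-117849236 (plus strand), with CCAAT in capitals.
Aurka: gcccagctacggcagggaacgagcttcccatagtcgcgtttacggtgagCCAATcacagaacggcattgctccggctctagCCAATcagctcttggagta
Birc5: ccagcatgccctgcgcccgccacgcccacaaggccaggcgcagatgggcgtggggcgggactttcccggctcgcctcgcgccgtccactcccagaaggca

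CCAAT, the letters that the factor NF-Y reads, began 51 and 19 bases before the *Aurka* RefSeq start. That start lies 64 bases upstream of the nearest principal GENCODE start, so both matches lie farther from the latter. For *Birc5* the distance between the starts is 14 bases. *Cdca8* held it on the other strand at 85, 51 and 11 bases before its start; its window is not printed because 59 of the 100 bases lie in annotated exons. Neither the *Birc5* nor the *Sgo1* window held it, on either strand. Over all 32851 promoters, 18.9% had CCAAT in the last 100 bases and 33.8% in the 250 bases before the start. TTTGAA and TTTAAA, letter variants of the cell cycle genes homology region, were also searched on both strands. TTTAAA occurred once among the 4 genes, 220 bases before the *Birc5* start, against 12.1% of all promoters over 250 bases, and TTTGAA in none, against 16.0%. Only bases before the RefSeq start were searched, so the 64 bases from there to the principal GENCODE start of *Aurka* were left out. These matches are descriptions of the letters and not sites of binding.

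The effect of CYC065 was compared within each population. In 2N cells, all 8 genes were lower with CYC065, at 31.2% (*Birc5*) to 53.7% (*Cdca8*) of vehicle. The median log2 fold change was -1.21, against 0.02 over all 14093 genes tested. *Birc5* fell by 1.68 (SE 0.04), *Incenp* by 1.31 (SE 0.03), *Bora* by 1.27 (SE 0.10), *Aurkb* by 1.22 (SE 0.04), *Cdca2* by 1.20 (SE 0.03), *Aurka* by 1.11 (SE 0.03) and *Sgo1* by 1.08 (SE 0.04) on the log2 scale. These 7 were called lower, and *Cdca8* had -0.90 (SE 0.03), past the looser call. Of all genes tested, 11.1% were called lower, and 25.1% by the looser call that all 8 genes passed. Of the 10 markers of other cell types, 6, 6 and 5 were tested in 2N, 4N and unsorted cells, and 3 were called higher with CYC065 in each. The shares of all genes called higher in the same comparisons were 16.4%, 15.7% and 12.7%. *Cd68* had log2 fold changes of 2.87, 2.46 and 1.49 in 2N, 4N and unsorted cells, *Pdgfrb* 1.28, 1.31 and 1.92, and *Dcn* 1.41, 1.11 and 1.98. *Cdh5* was called lower in 4N (-1.71) and *Csf1r* in unsorted cells (-1.20). The part of these markers in the fall of the 8 genes was not tested.

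In 4N cells the differences between treatments were smaller, with a median log2 fold change of -0.54 against 0.05 over all 14183 genes tested. *Birc5* was the only gene of the 8 called lower (-1.10, SE 0.03, 46.6% of vehicle), against 9.72% of all genes tested. *Bora* (-0.80, SE 0.08), *Aurka* (-0.67, SE 0.03), *Aurkb* (-0.54, SE 0.03) and *Incenp* (-0.53, SE 0.03) passed the looser call with it, 5 genes in all, against 23.3% of all genes. *Sgo1* had -0.45 (SE 0.03), *Cdca2* -0.44 (SE 0.03) and *Cdca8* -0.37 (SE 0.03). With scaling by library size alone, 3 genes passed the looser call, and if cultures are taken to vary with a coefficient of 0.2, *Birc5* alone did.

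In unsorted cells, all 8 genes were called lower, against 12.3% of all genes tested, and the median log2 fold change was -1.38. The fall was largest for *Birc5* (-1.88, SE 0.04), the subunit that also fell most in 2N and 4N cells. *Sgo1* had -1.49 (SE 0.04), *Aurka* -1.47 (SE 0.03), *Bora* -1.41 (SE 0.11), *Aurkb* -1.35 (SE 0.04), *Incenp* -1.27 (SE 0.03), *Cdca8* -1.25 (SE 0.03) and *Cdca2* -1.005 (SE 0.03). All 8 also passed the looser call, against 26% of all genes. The *Cdca2* value lay at the threshold, and its call was lost in 6 alternatives, among them DESeq2 (-0.97) and the fit without replicate 3 (-0.98).

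**Figure D2:**
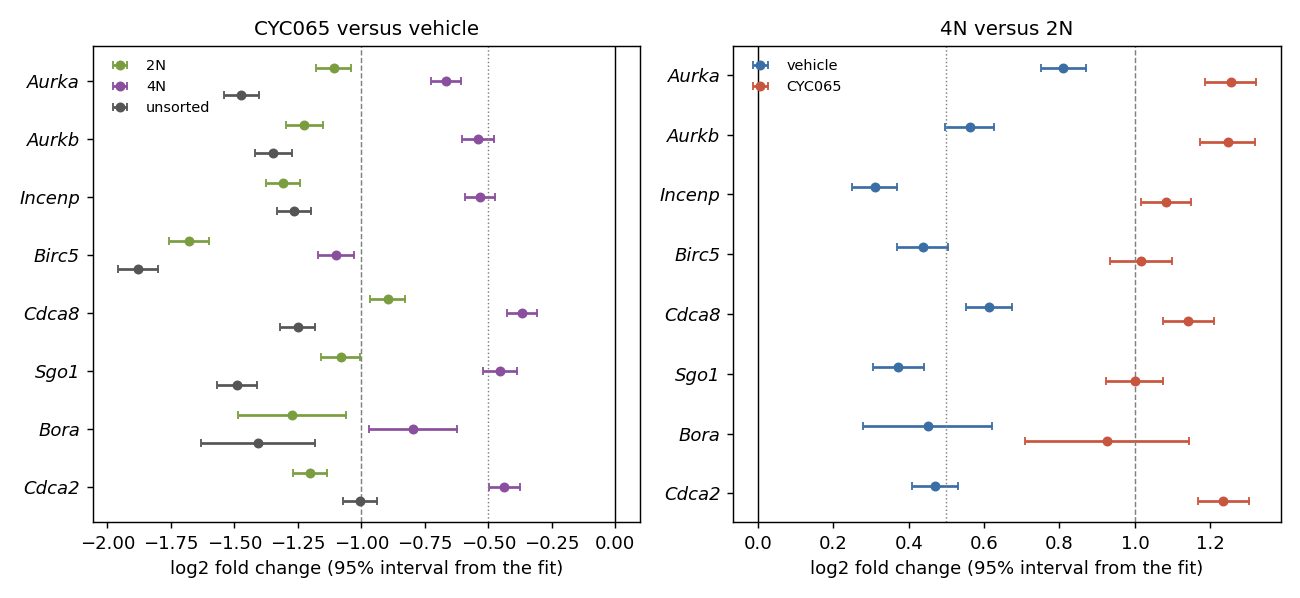
Log2 fold change of each gene (x axes) with its 95% interval from the fit, for CYC065 against vehicle in the 2N, 4N and unsorted libraries (left) and for 4N versus 2N cells with vehicle and with CYC065 (right). Dashed and dotted lines mark 1 and 0.5 in the direction of the calls; *Birc5* is the lowest gene in all 3 comparisons at left, and every CYC065 value at right is above the vehicle value of the same gene.

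Sorted 4N cells were next compared with sorted 2N cells. With vehicle, all 8 genes were higher in 4N than in 2N cells, by a log2 fold change of 0.31 (*Incenp*, SE 0.03) to 0.81 (*Aurka*, SE 0.03) and a median of 0.46, against 0.00 over all 13364 genes tested. None passed the call by edgeR or by DESeq2, against 0.853% of all genes, and the unadjusted P was below 0.05 for all 8. The kinases *Aurka* and *Aurkb* (0.56, SE 0.03) and borealin, *Cdca8* (0.61, SE 0.03), passed the looser call, 3 of 8 genes against 3.31% of all genes. If cultures are taken to vary with a coefficient of 0.1, 1 gene passed it, and with 0.2 none did. *Cdca2* had 0.47 (SE 0.03), *Bora* 0.45 (SE 0.08), *Birc5* 0.44 (SE 0.03) and *Sgo1* 0.37 (SE 0.03).

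With CYC065, the median log2 fold change of 4N versus 2N cells was 1.11, against 0.00 over all 14183 genes tested. *Aurka* (1.25, SE 0.03), *Aurkb* (1.25, SE 0.04), *Cdca2* (1.23, SE 0.03), *Cdca8* (1.14, SE 0.03), *Incenp* (1.08, SE 0.03) and *Birc5* (1.02, SE 0.04) were called higher, 6 of 8 genes against 1.32% of all genes. *Sgo1* (1.00, SE 0.04, just under 1 before rounding) and *Bora* (0.93, SE 0.11) passed the looser call, as all 8 did, against 3.91% of all genes. Between 98.1% (*Bora*) and 99.3% (*Aurka*) of the genes tested had a lower value. If cultures are taken to vary with a coefficient of 0.2, no gene was called, and the unadjusted P was below 0.05 for all 8. Without replicate 2, *Birc5* fell just below the threshold and 5 genes were called; without replicate 1, all 8 were.

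Whether the 4N/2N ratio differed by treatment was tested directly. It was above 0 for all 8 genes, with a median log2 difference of 0.60 against 0.01 over all 14484 genes tested. *Incenp* and *Cdca2* had the largest values (both 0.77, SE 0.04), followed by *Aurkb* (0.68, SE 0.05), *Sgo1* (0.63, SE 0.05), *Birc5* (0.58, SE 0.05), *Cdca8* (0.53, SE 0.04), *Bora* (0.48, SE 0.13) and *Aurka* (0.44, SE 0.04). None passed the call by edgeR or by DESeq2, against 1.99% of all genes, while 6 of 8 genes, all but *Bora* and *Aurka*, passed the looser call, against 5.23%. The adjusted P was below 0.05 for all 8 genes, as for 39.3% of all genes tested, and it was largest for *Bora* (adjusted P = 0.00672, edgeR quasi-likelihood test). Without replicate 2 or without replicate 3, 7 of the 8 genes had an adjusted P below 0.05, and the value of *Bora* was 0.27 without replicate 2. With an assumed coefficient of variation of 0.1, no gene passed the looser call and 5 had an unadjusted P below 0.05. These comparisons share the sorted libraries with the comparisons of CYC065 with vehicle, so that a low 2N library with CYC065 enters both.

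Unsorted cells were set beside the sorted ones after the values had been seen. With CYC065, unsorted cells were lower than 4N cells by a log2 fold change of -1.35 (*Aurka*) to -1.04 (*Cdca2*), and differed from 2N cells by -0.31 (*Sgo1*) to 0.19 (*Cdca2*). *Incenp*, *Cdca8* and *Sgo1* were below both sorted populations with an adjusted P below 0.05 in each, 3 of 8 genes against 24.7% of all genes tested. With vehicle this held for *Incenp* alone, 1 of 8 genes against 30.2%.

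Ratios between genes within a library do not depend on the scaling between libraries. The ratio of *Birc5* to *Aurkb* counts was 1.32 in unsorted, 1.35 in 2N and 1.24 in 4N cells with vehicle. With CYC065 it was 0.915, 0.983 and 0.839. The 3 CYC065 values lay below the 3 vehicle values and their intervals did not meet. The ratio of *Cdca8* to *Aurkb* was 0.881, 0.854 and 0.886 with vehicle and 0.943, 1.07 and 0.998 with CYC065, so the borealin share was higher under treatment in both sorted populations. *Incenp* relative to *Aurkb* was lower in 4N than in 2N cells with vehicle (1.69 against 2.01) and with CYC065 (1.69 against 1.89). *Sgo1* relative to *Aurkb* was also lower in 4N than in 2N cells with vehicle (0.793 against 0.905) and with CYC065 (0.843 against 0.999). *Aurka* relative to *Aurkb* was higher in 4N than in 2N cells with vehicle (1.71 against 1.44), while the values with CYC065 were 1.57 and 1.56.

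**Figure D3:**
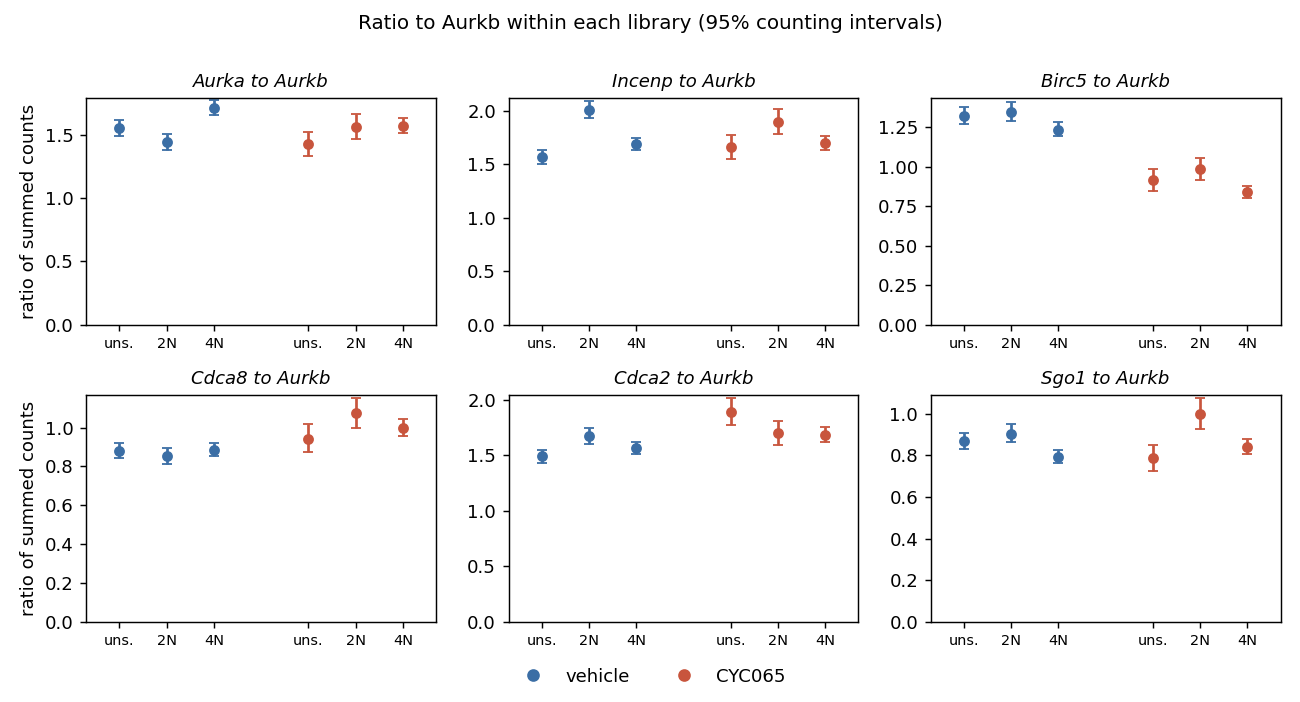
Ratio of summed counts of 6 genes to those of *Aurkb* in the same library (y axes, starting at 0), not corrected for gene length, in unsorted (uns.), 2N and 4N cells with vehicle (blue) and CYC065 (red). Bars are 95% counting intervals; the *Birc5* ratio is 1.24 to 1.35 in the vehicle and 0.839 to 0.983 in the CYC065 libraries.

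The genes with which the Aurora kinases and the complex work were described by function, with *Plk1*, *Cdk1* and *Xiap* each in a pair of lists. Of 8 central spindle partners, 7 were called higher in 4N than in 2N cells with CYC065, against 1.32% of all genes. Their median log2 fold change was 1.19. With vehicle, 0 were called by edgeR or DESeq2, near the share of 0.853% of all genes. Their median with vehicle was 0.65, and all 8 had an unadjusted P below 0.05. *Prc1*, the microtubule bundler of the central spindle, had 1.53 (SE 0.02) with CYC065, and *Ect2*, the exchange factor that activates RhoA at the cleavage furrow, had 1.35 (SE 0.03). *Kif20a*, the kinesin that carries the passenger complex to the midzone, had 1.02 (SE 0.02), while *Racgap1* had 0.94 (SE 0.02). With CYC065 against vehicle in 2N cells, all 8 of these partners were called lower, against 11.1% of all genes.

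Of 9 genes of centromere recruitment, 5 were called higher in 4N than in 2N cells with CYC065 (median 1.02), against 1.32% of all genes. *Ccnb1*, cyclin B1, had 1.49 (SE 0.03) and *Knl1*, the kinetochore scaffold, 1.34 (SE 0.02). The kinases that write the histone marks read by the complex had lower values, *Bub1* 0.98 (SE 0.03) and *Haspin* 0.70 (SE 0.09), and *Cenpb* had -0.23 (SE 0.02). Both kinases were called lower with CYC065 in 2N cells, *Bub1* at -1.45 (SE 0.03) and *Haspin* at -1.88 (SE 0.08).

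Of 12 Aurora B substrates, 8 were called higher in 4N than in 2N cells with CYC065 (median 1.10), against 1.32% of all genes. The kinesins *Kif2c* (1.40, SE 0.04) and *Kif18b* (1.35, SE 0.04) led, with *Mis12* lowest at 0.27 (SE 0.04). Of 12 activators and spindle pole partners of Aurora A, 6 were called (median 0.82), against the same share. *Plk1* had 1.31 (SE 0.04), the centrosomal kinase *Nek2* 1.27 (SE 0.04) and *Tpx2*, the microtubule-bound activator of Aurora A, 1.21 (SE 0.02). *Nedd9*, a scaffold that also stabilises Aurora A, had -0.37 (SE 0.04). With vehicle, 0 genes of the centromere, substrate and Aurora A lists were called higher by edgeR or DESeq2, near the share of 0.853% of all genes. In these lists, 8 of 9, 10 of 12 and 12 of 12 genes had an unadjusted P below 0.05.

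**Figure D4:**
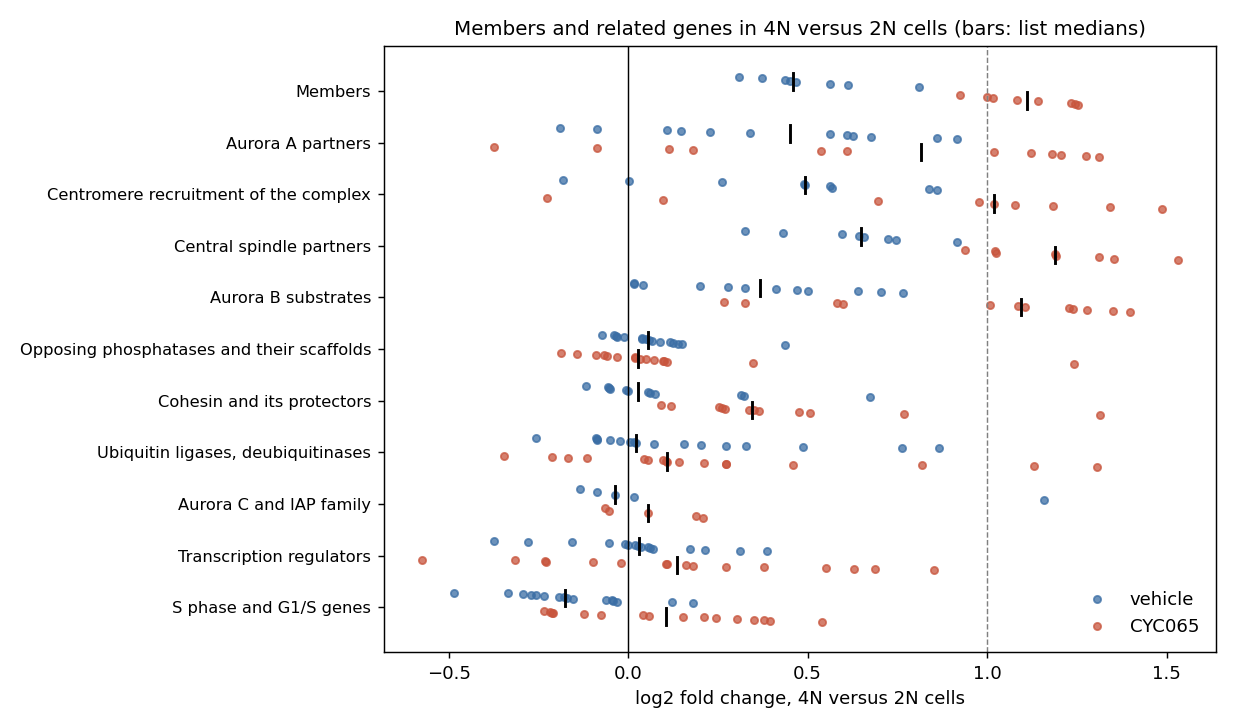
Log2 fold change of 4N versus 2N cells (x axis) for each gene tested (points) of the 8 genes ("Members") and of 10 lists of related genes, with vehicle in blue and CYC065 in red; black bars are list medians and the dashed line marks 1. The 4 lists of spindle and centromere partners have medians of 0.82 to 1.19 with CYC065, and the other 6 lists medians of 0.03 to 0.34.

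Phosphatase, cohesin and ubiquitin system genes were set against the same 1.32% of all genes called higher in 4N than in 2N cells with CYC065. Of 16 phosphatase genes and scaffolds, 1 was called, *Mki67* (1.24, SE 0.01), which binds protein phosphatase 1 as Repo-Man does. The list's median was 0.03, and *Ppp2r5d* had 0.35 (SE 0.02) and *Ppp2cb* -0.19 (SE 0.03). Of 12 genes of cohesin and its protectors, 1 was called, *Espl1*, the separase (1.31, SE 0.02). *Pttg1*, the securin, had 0.77 (SE 0.04) and *Smc3* 0.09 (SE 0.02), with a median of 0.34. Of 17 tested ubiquitin ligase parts and deubiquitinases, the mitotic E2 *Ube2c* (1.31, SE 0.04) and the activator *Cdc20* (1.13, SE 0.03) were called, with a median of 0.11 and *Klhl21* at -0.35 (SE 0.04).

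*Aurkc*, the germline Aurora kinase, had 0 to 2 counts per library and was not tested. Of the 5 tested genes of the Aurora C and inhibitor of apoptosis (IAP) list, 0 were called in 4N versus 2N cells with CYC065 by edgeR or DESeq2. This is near the shares of all genes, 1.32% called higher and 1.9% lower, and 2 of the 5 had an unadjusted P below 0.05. The list's medians for CYC065 versus vehicle were 0.71 in 2N and 0.78 in 4N cells. *Birc2*, an IAP ubiquitin ligase, had 0.87 (SE 0.03) in 2N cells and was called higher in 4N cells (1.12, SE 0.03). *Naip2*, of 203 counts or fewer per library, was called higher in 2N (3.05, SE 0.21), 4N (1.83, SE 0.17) and unsorted cells (1.38, SE 0.17), while the large IAP gene *Birc6* had -0.41 (SE 0.01) in 2N cells.

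Of 16 transcription regulators of late cell cycle genes, 0 were called in 4N versus 2N cells with CYC065 by edgeR or DESeq2 (median 0.13). This is near the shares of all genes, 1.32% called higher and 1.9% lower, and 15 of the 16 had an unadjusted P below 0.05. *Foxm1*, an activator of G2 and mitosis genes, had 0.85 (SE 0.03) and *Mybl2* 0.38 (SE 0.04), while *Rbl1* had 0.69 (SE 0.05) and *Cdkn1a* -0.58 (SE 0.06). With CYC065 against vehicle in 4N cells, *Foxm1* (-1.43, SE 0.02) and *Mybl2* (-1.73, SE 0.04) were called lower. Of 16 S phase genes, 12 were called lower in that comparison (median -1.14), in which 9.72% of all genes tested were. In 4N versus 2N cells with CYC065, 0 of the 16 S phase genes were called by edgeR or DESeq2, again near the shares of all genes. Of the 16, 15 had an unadjusted P below 0.05 (median 0.10). *Rrm2* had 0.54 (SE 0.03), *Gins2* 0.40 (SE 0.07) and *Ccne1* -0.23 (SE 0.05).

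Over the 6 libraries, the genes most like the mean profile of the 8 genes were sought among 10295 genes with a mean level of at least 5 CPM, by the root mean square difference of centred log2 CPM. The 5 nearest outside the 8 were *Gtse1* (0.05), *Kif20b* (0.06), *Spc25* (0.09), *Kif20a* (0.09) and *Troap* (0.10). Of the 8 genes, *Aurkb* lay nearest to their own mean (0.05, rank 2 of all genes) and *Birc5* farthest (0.25, rank 124). The measure describes 6 libraries only, and the lowest correlation between any pair of the 8 genes over them was r = 0.932.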

How the data were processed

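ED1SQ4 cells given vehicle or CYC065 (0.5 μM, 72 hours) were profiled in 6 conditions by rRNA-depleted, stranded, paired-end RNA-Seq. The deposited values are RSEM expected counts per GENCODE M21 gene, which the authors neither normalized nor filtered; 9.66% of genes had a fractional value, and counts were rounded here. The submitters' processing notes name bcl2fastq 2.17, cutadapt 1.18, STAR 2.7.0f, RSEM 1.3.1 and mm10; the study's methods give later versions of bcl2fastq and RSEM.

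All 18 columns (3 parts of each of 6 libraries) entered 1 edgeR 4.0.16 quasi-likelihood fit in R 4.3.3 with TMM scaling, a prior count of 0.125 and P values adjusted by Benjamini-Hochberg over the genes that reached 30 summed counts in 1 of the conditions compared. No covariate was used. The coefficient of variation among columns was 0.0288. Intervals for levels are exact Poisson intervals on summed counts. Those for ratios of levels or of counts are exact binomial intervals on the pair of summed counts. The scripts were tested on simulated data: in 4N versus 2N cells with CYC065, 200 of 13819 genes were changed, all 105 with 4-fold changes were called, all 95 with 2-fold changes passed the adjusted P, and 3 unchanged genes were called. The simulated counts held Poisson noise only, so the test does not bear on spread between cultures.

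The genes, the lists of related genes and the tests were chosen with earlier results of these data known. Of each list, the 2 genes with the largest and the 1 with the smallest change in 4N versus 2N cells with CYC065 were to be named among genes with 100 counts, plus *Tpx2*, *Plk1*, *Haspin*, *Bub1*, *Kif20a*, *Foxm1*, *Mybl2* and *Aurkc*. Alternatives were DESeq2 1.42.0, its size factors, library size scaling, separate fits of sorted and unsorted conditions, other filters and prior, an assumed coefficient of variation, a replicate block and leaving out each replicate. Deviations of same-numbered columns had r of -0.356 to 0.514 (median -0.01), and those of differently numbered columns -0.370 to 0.343 (median 0.007). By the medians the numbers did not pair the columns, while the highest r was between same-numbered columns. Annotation and promoters were read with Python 3.11.15.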

Additional observations from a re-analysis of the deposited data

Results flagged for a closer look

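The 4N/2N ratio differed between treatments for each of the 8 genes by the direct test of the difference (edgeR quasi-likelihood test on single libraries). On the log2 scale the ratio with CYC065 exceeded that with vehicle by 0.44 for *Aurka*, 0.68 for *Aurkb*, 0.77 for *Incenp*, 0.58 for *Birc5*, 0.53 for *Cdca8*, 0.63 for *Sgo1*, 0.48 for *Bora* and 0.77 for *Cdca2*. Without replicate 2 or without replicate 3, 7 of the 8 had an adjusted P below 0.05, and *Bora* had 0.27 without replicate 2. Each ratio rests on 1 library a condition, and 39.3% of all genes tested passed the same adjusted P. If cultures are taken to vary with a coefficient of 0.1, 0 of the 8 genes had an adjusted P below 0.05 and 5 an unadjusted P below 0.05; with 0.2, none had either.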

How the results depend on the processing

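Of 624 values of single genes under alternatives, 605 kept their direction and their side of the threshold, 13 lost a call, 6 gained one and 0 reversed. The count follows calls at a log2 fold change of 1, so a comparison without calls could lose none. With an assumed coefficient of variation of 0.1, all 48 values counted as the same. Yet the genes with an adjusted P below 0.05 fell from 8 to 1 in 4N versus 2N cells with vehicle. For the difference between the 4N/2N ratios they fell from 8 to 0. With an assumed coefficient of variation of 0.2, 0 genes were called in 4N versus 2N cells with CYC065 in place of 6. With scaling by library size alone, the median of the 8 genes was -0.47 for CYC065 versus vehicle in 4N cells and -1.49 in unsorted cells, where the median of all genes moved to 0.11 and -0.12. Leaving out each replicate in turn gave medians of -1.42 to -1.31 in unsorted cells, -1.31 without replicate 2. *Cdca2* lost its call in unsorted cells in 6 alternatives and *Birc5* in 4N versus 2N cells with CYC065 without replicate 2 (0.9995), while *Sgo1* gained one in 5 and *Bora* without replicate 1. The replicate block changed no call, with 7, 1 and 8 genes lower with CYC065 in the 2N, 4N and unsorted libraries and 6 higher in 4N versus 2N cells with CYC065. Spread between cultures was not measured, and the cause of each change was not tested.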
